A study of Mus musculus with 13 samples.

Results

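Expression of 10 genes that mark the periportal part of the liver lobule, most of them of nitrogen handling, was followed in aged mouse livers. Some of the mice had been exposed to a chemical early in life. The genes were taken by name from the raw table of gene intensities. They are the urea cycle genes Cps1, Otc, Ass1, Asl and Arg1, the amino acid breakdown genes Gls2, Sds, Sdsl and Hal, and the adhesion gene Cdh1. They make up 10 of the 18138 rows of the table, and all 10 were among the 8431 genes tested. All animals were male B6C3F1 mice, a hybrid of inbred strains used in carcinogen testing, and the labels name no engineered allele. From 7 days of age, 5 mice drank water with 0.06% phenobarbital (PB, a sedative that promotes rodent liver tumours), 4 mice drank water with 3.5 g/L dichloroacetic acid (DCA, a by-product of water disinfection) and 4 control mice drank deionized water alone. The treated mice were exposed for 10 weeks and then drank deionized water for another 90 weeks, so that none was under treatment when the tissue was taken. A small piece of archived frozen liver was taken per mouse and its RNA was hybridised to 1 Illumina bead array. The labels give the tissue as liver only, with no lobe and no histology, and do not say whether a piece held a nodule.

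In the liver lobule, blood flows from the portal vein towards the central vein, and hepatocytes along this path divide the work. Periportal hepatocytes break down amino acids and turn the ammonia into urea, while a rim of hepatocytes around the central vein, which depends on Wnt and beta-catenin signalling, catches the remaining ammonia as glutamine. In the urea cycle, the mitochondrial enzymes Cps1 and Otc make carbamoyl phosphate and citrulline, and the cytosolic enzymes Ass1, Asl and Arg1 carry the nitrogen through argininosuccinate and arginine to urea. Gls2 releases ammonia from glutamine, Sds turns serine into pyruvate and ammonia, Sdsl is its close relative, and Hal takes the first step of histidine breakdown. Cdh1, E-cadherin, joins epithelial cells and is found in periportal hepatocytes and bile ducts.

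The promoters of Hal and Ass1 are shown because they are the members whose windows held a motif searched for. RefSeq promoter sequences on build GRCm38.p6, each from 250 bases before to 50 bases after the gene's start, were matched by symbol for 3 of the 10 members, namely Otc, Ass1 and Hal. They are given 5′ to 3′ on the plus strand, with the letters of the matches in capitals. The Hal window is chr10:93488518-93488817 and the Ass1 window is chr2:31470020-31470319.
Hal: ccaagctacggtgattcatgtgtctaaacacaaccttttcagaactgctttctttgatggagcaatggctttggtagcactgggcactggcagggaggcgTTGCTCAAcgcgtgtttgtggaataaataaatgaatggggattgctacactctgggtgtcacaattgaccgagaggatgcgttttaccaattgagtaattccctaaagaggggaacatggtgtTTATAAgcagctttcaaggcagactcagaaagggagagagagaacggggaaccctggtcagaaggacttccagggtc
Ass1: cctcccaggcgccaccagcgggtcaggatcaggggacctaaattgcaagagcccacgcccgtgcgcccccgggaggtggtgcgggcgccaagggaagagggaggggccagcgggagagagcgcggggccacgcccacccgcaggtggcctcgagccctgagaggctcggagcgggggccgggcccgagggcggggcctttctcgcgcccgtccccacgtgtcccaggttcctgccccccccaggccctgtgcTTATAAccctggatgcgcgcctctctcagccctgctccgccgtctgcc
Both strands were searched for TTGCNNAA, the C/EBP type, for TGACG, the cyclic AMP response half-site, and for TATAA, the TATA type. The first capitals in Hal are the C/EBP type letters, which 10.8% of 32851 RefSeq promoters of this length hold. The other capitals, in both genes, are TATAA with its overlapping match on the other strand, and 24.9% of promoters hold it. In Ass1 this match lies just inside the transcribed part. TGACG, present in 20.8% of promoters, was not in these windows, and no motif searched for was in that of Otc. GC content was 74.0% for Ass1, 47.7% for Hal and 44.3% for Otc, against a median of 52.7% over all promoters. These matches describe letters only.

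Over the 13 arrays, mean raw intensity was between 188.6 and 462 units and the number of genes detected (detection p-value under 0.05) was between 7141 and 8458. Values below are log2 intensities after background correction and quantile normalization. They can be compared between arrays for 1 gene but not between genes, since each gene has probes of its own. Of 8 hepatocyte markers in the table, 6 were detected on all 13 arrays, with Ttr between 13.76 and 14.09. The row of Alb, the albumin gene, was detected on 4 arrays and that of Fgb on 0, so a dim row here can belong to an abundant liver mRNA. Of 9 bile duct markers, only Spp1 was detected on all arrays, and Krt19, Cftr and Cldn4 were detected on none of them.

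Among the members' values, PB replicate 1 stood apart, though not for these genes alone. Control replicate 4 departed in genes of the other side of the lobule, as given below. PB replicate 1 was the lowest of all 13 arrays for 6 of the 10 members, namely Cps1, Arg1, Gls2, Sds, Hal and Sdsl. Its mean over the 10 members was 8.70, against 9.13 to 9.97 on the other 12 arrays. PB replicate 1 also had the lowest mean of 12 serine, glycine and threonine genes (8.32) and of 22 genes of other amino acid breakdown (9.37). In each of these lists 6 genes were lowest on it. The share of all genes lowest on it is not given here. The mean raw intensity of PB replicate 1, 223 units, was not the lowest, which was that of PB replicate 3. The members' comparisons with PB are therefore given with and without this array. In whole liver RNA, fewer cells of a type and less RNA per cell cannot be told apart.

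Cps1, the enzyme that brings ammonia into the urea cycle, varied more within the control group than between groups. Its log2 intensity was 9.78, 10.61, 10.86, 10.74 and 10.47 in PB mice, 11.35, 10.70, 10.49 and 11.32 in DCA mice, and 11.81, 10.19, 9.99 and 10.22 in control mice. Control replicate 1 lay above every other array and the other 3 controls lay below all but 1 array of the treated groups. Group means were 10.49 ± 0.42 in PB, 10.97 ± 0.43 in DCA and 10.55 ± 0.85 in control mice (SD, n = 5, 4 and 4). The difference was -0.06 ± 0.35 for PB against control, 0.41 ± 0.37 for DCA against control and 0.47 ± 0.35 for DCA against PB (SE of the limma fit, as for all differences below). Without PB replicate 1, PB differed from control by 0.12 and DCA from PB by 0.30.

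Otc, which makes citrulline, had a dim row. It was detected on 3 of 5 PB arrays, 1 of 4 DCA arrays and 2 of 4 control arrays, whereas the other 9 members were detected on all 13. Its values were 5.64, 5.90, 6.02, 6.09 and 6.11 in PB mice, 5.71, 5.98, 5.83 and 5.89 in DCA mice, and 6.07, 5.59, 5.87 and 5.43 in control mice. The whole range over 13 arrays was 1.60-fold, the narrowest of the 10 members. The differences were 0.21 ± 0.15 for PB against control, 0.11 ± 0.16 for DCA against control and -0.10 ± 0.15 for DCA against PB. With PB replicate 1 left out, PB differed from control by 0.29 and DCA from PB by -0.18. Such values near background limit what the row can show. The Otc and Asl rows each combine several probes, which cannot be looked at one by one. Their detection p-values are combined over probes too. The count of arrays with Otc detected is therefore not a like measure to that of single-probe rows.

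Ass1 and Asl, which build and split argininosuccinate, differed in how far their arrays spread. Ass1 was 12.56, 13.29, 13.20, 12.68 and 13.15 in PB mice, 14.02, 13.46, 13.33 and 12.91 in DCA mice, and 12.95, 12.40, 12.998 and 13.66 in control mice. Asl was 6.73, 6.72, 6.78, 6.74 and 5.83 in PB mice, 7.06, 6.60, 6.70 and 7.79 in DCA mice, and 8.15, 5.31, 5.60 and 5.99 in control mice. For both genes the 3 groups overlapped. Raw intensity of the Asl row ran from 119 units on control replicate 2 to 490 on control replicate 1. Its lower values were thus as dim as those of Otc. Control replicate 1 was the highest and control replicate 2 the lowest of all arrays for Asl, a 7.19-fold range, and the other 2 controls lay below all DCA arrays. DCA exceeded control by 0.43 ± 0.28 for Ass1 and by 0.78 ± 0.50 for Asl, the largest DCA difference from control among the 10 members, with a 95% interval from -0.29 to 1.84. PB differed from control by -0.03 ± 0.26 for Ass1 and 0.30 ± 0.47 for Asl, and by 0.08 and 0.25 without PB replicate 1. DCA differed from PB by 0.45 ± 0.26 for Ass1 and 0.48 ± 0.47 for Asl, and by 0.35 and 0.52 without that array.

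Arg1, the last enzyme of the cycle, had 4 DCA arrays close together, with an SD of 0.11, against 0.50 in PB and 0.40 in control mice. Its values were 11.33, 12.47, 12.56, 12.25 and 11.97 in PB mice, 12.70, 12.55, 12.79 and 12.58 in DCA mice, and 12.77, 11.94, 11.99 and 12.50 in control mice. The DCA arrays lay above 4 of the 5 PB arrays, and the highest PB array, 12.56, lay just above the lowest DCA array, 12.55. DCA exceeded PB by 0.54 ± 0.24 (interval 0.02 to 1.06), with an unadjusted p of 0.0412 and an adjusted p of 0.323 in limma. Without PB replicate 1 the difference was 0.34 and the unadjusted p was 0.100. PB differed from control by -0.19 ± 0.24 with all arrays and by 0.01 without PB replicate 1, and DCA from control by 0.35 ± 0.25.

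**Figure D1:**
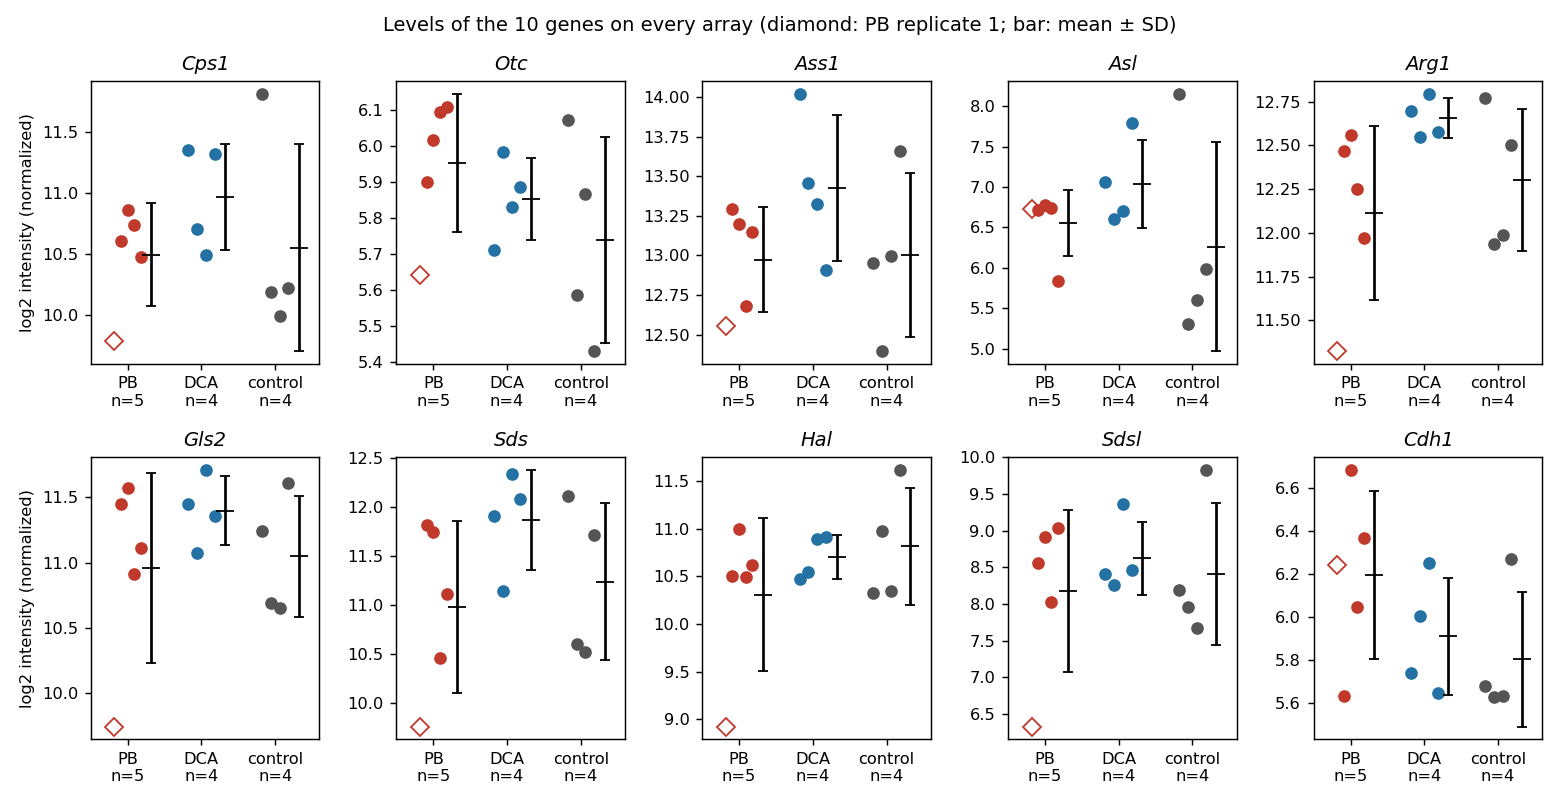
Log2 intensity of each of the 10 genes on every array, by group (PB, n = 5; DCA, n = 4; control, n = 4), with group means and SD. The groups overlap for all 10 genes, and PB replicate 1 is the lowest of all arrays for 6 of them.

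Among the amino acid breakdown genes, Gls2 was 9.74, 11.45, 11.57, 10.91 and 11.11 in PB mice, 11.45, 11.07, 11.71 and 11.35 in DCA mice, and 11.24, 10.69, 10.65 and 11.61 in control mice. PB replicate 1 was the only array below 10. Gls2 averaged 10.96 ± 0.73 in PB, 11.40 ± 0.26 in DCA and 11.05 ± 0.46 in control mice. Without PB replicate 1, the PB mean was 11.26 ± 0.30 (SD, n = 4). The PB difference from control was -0.09 with all arrays and 0.21 without this one. DCA exceeded control by 0.35 ± 0.34, and exceeded PB by 0.44 ± 0.32 with all arrays and by 0.14 without PB replicate 1.

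Sds, which turns serine into pyruvate, had the largest difference between the treatments. It was 9.76, 11.81, 11.75, 10.46 and 11.12 in PB mice, 11.91, 11.14, 12.33 and 12.08 in DCA mice, and 12.11, 10.61, 10.52 and 11.71 in control mice. The array order mixed the groups, with DCA replicate 3 at the top and PB replicates 1 and 4 at the bottom. DCA exceeded PB by 0.89 ± 0.44 (interval -0.06 to 1.83), with an adjusted p of 0.368 in limma, and by 0.58 without PB replicate 1. PB differed from control by -0.26 ± 0.44 with all arrays and by 0.05 without that array, and DCA exceeded control by 0.63 ± 0.47.

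Sdsl, the neighbour of Sds on chromosome 5, had the widest range of the 10 members, 11.3-fold. Its values were 6.33, 8.56, 8.91, 8.03 and 9.04 in PB mice, 8.40, 8.25, 9.36 and 8.47 in DCA mice, and 8.18, 7.96, 7.67 and 9.83 in control mice. The lowest array was PB replicate 1 and the highest was control replicate 4. The differences were -0.24 ± 0.53 for PB against control, 0.21 ± 0.56 for DCA against control and 0.45 ± 0.53 for DCA against PB. With PB replicate 1 left out, PB differed from control by 0.22 and DCA from PB by -0.01.

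Hal, the histidine enzyme, was the only member whose mean was highest in control mice. It was 8.92, 10.51, 10.997, 10.49 and 10.62 in PB mice, 10.47, 10.54, 10.89 and 10.91 in DCA mice, and 10.32, 10.97, 10.34 and 11.62 in control mice. Leaving PB replicate 1 aside, 12 arrays lay between 10.32 and 11.62. PB differed from control by -0.51 ± 0.37 with all arrays and by -0.16 without that array, and DCA differed from control by -0.11 ± 0.39. DCA exceeded PB by 0.40 ± 0.37 with all arrays and by 0.05 without PB replicate 1.

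Cdh1, the adhesion gene, was 6.24, 5.64, 6.68, 6.05 and 6.37 in PB mice, 5.74, 6.01, 6.25 and 5.65 in DCA mice, and 5.68, 5.63, 5.64 and 6.27 in control mice. It was not low on PB replicate 1. Its row was dim, with raw intensity between 120.8 and 194.7 units, against 115.3 to 193.0 for Otc. Such low values limit what this row can show too, although it was detected on all 13 arrays. Of the 5 PB arrays, 4 lay above 3 of the 4 control arrays. PB exceeded control by 0.39 ± 0.21 (interval -0.06 to 0.85), the member with the smallest unadjusted p in that comparison, 0.0862, and an adjusted p of 0.579 in limma. Without PB replicate 1 the difference was 0.38. DCA differed from PB by -0.28 ± 0.21 with all arrays and by -0.27 without that array, and from control by 0.11 ± 0.22.

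For PB against control, the question was whether early PB left a lasting difference in these genes. None of the 10 members passed, and 3 had a higher mean in PB and 7 a lower one, with a median log2 difference of -0.08. Over all 8431 genes, 6 were called (0.0712%), the median difference was -0.01, and 49.0% were higher and 51.0% lower in PB. The adjusted p of the members ran between 0.579 and 0.982 in limma. At an unadjusted p under 0.05 there were 0 members, against 10.2% of all genes (857). Without PB replicate 1, 9 members were higher and only Hal was lower, with a median of 0.16 and no call, the smallest adjusted p being 0.471. Without control replicate 1, 5 of 10 members were higher, and without control replicate 4, 6 of 10. The signs of most members in this comparison thus changed with single arrays. Otc and Cdh1 stayed higher and Hal lower in PB whichever array was left out.

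DCA against control asked the same of DCA. None of the 10 members passed, and 9 had a higher mean in DCA, with Hal lower. Over all genes 0 were called (0%) by limma, with 366 (4.34%) at an unadjusted p under 0.05, against 0 of the members. The members' median difference was 0.35, while the median over all genes was near 0 and 49.1% of all genes were higher and 50.9% lower in DCA. The adjusted p of every member was 0.995. Leaving out each array in turn gave 7 to 10 members higher in DCA, with a median between 0.22 and 0.48, and the fewest came without DCA replicate 3.

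DCA against PB compared the treatments directly. None of the 10 members passed, 8 had a higher mean in DCA and Otc and Cdh1 a lower one, with a median of 0.45. Over all genes 11 were called (0.130%), and 49.5% were higher and 50.5% lower in DCA. At an unadjusted p under 0.05 there was 1 member, Arg1, against 14.6% of all genes. Leaving out PB replicate 1 gave a median of 0.22, with 7 members higher in DCA and Otc, Sdsl and Cdh1 lower. The comparisons share their arrays, so their signs are not separate evidence. An F test for any difference among the groups called 0 members, against 9 genes of all (0.107%) and 11.2% at an unadjusted p under 0.05, with the smallest adjusted p, 0.539, for Arg1.

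**Figure D2:**
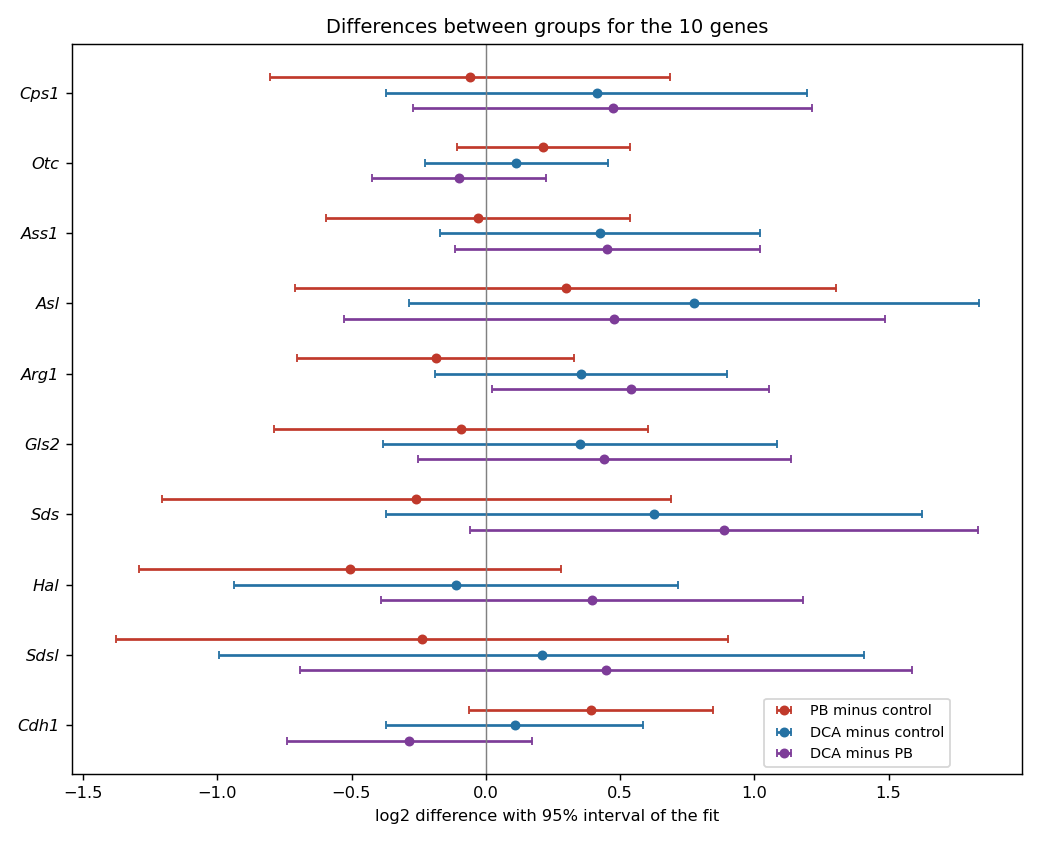
Log2 difference of each gene for PB against control, DCA against control and DCA against PB, with 95% confidence intervals of the limma fit. Every interval includes 0 except that of Arg1 for DCA against PB, 0.02 to 1.06 before adjustment.

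Non-overlap of groups gave the same count. For 0 of the 10 members did all arrays of 1 group lie above all arrays of another, in any comparison. Over all genes, this held for 3.48% in PB against control, 2.41% in DCA against control and 5.98% in DCA against PB. The intervals did not exclude sizeable differences. For Asl, DCA against control, values up to 1.84 on the log2 scale lay inside the interval, and for Sds the same bound was 1.63. A p that misses the threshold does not show that the groups were alike.

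The members varied widely between mice of 1 group. The residual SD of 5 members, Hal, Sds, Asl, Sdsl and Cps1, was above that of at least 93.0% of the 8431 genes, and that of Gls2 stood at the 91.1 percentile. Otc stood at 23.4. These ranks include PB replicate 1 and are not given without it. Without it, the SD in PB was 0.24 for Hal and 0.45 for Sdsl, against 0.80 and 1.10 with it. For Asl it was 0.46 against 0.41. The median SD of the members was 0.46 in PB, 0.35 in DCA and 0.57 in control mice, against 0.27, 0.23 and 0.27 over all genes. The PB value was 0.29 for the members and 0.22 for all genes when PB replicate 1 was left out. With all arrays, DCA had the smallest SD of the groups for 7 of 10 members. That count depended on PB replicate 1. Without it, the SD in PB fell below that in DCA for Otc (0.095 against 0.114) and Sdsl (0.45 against 0.50). Differences of spread between groups were not tested.

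**Figure D3:**
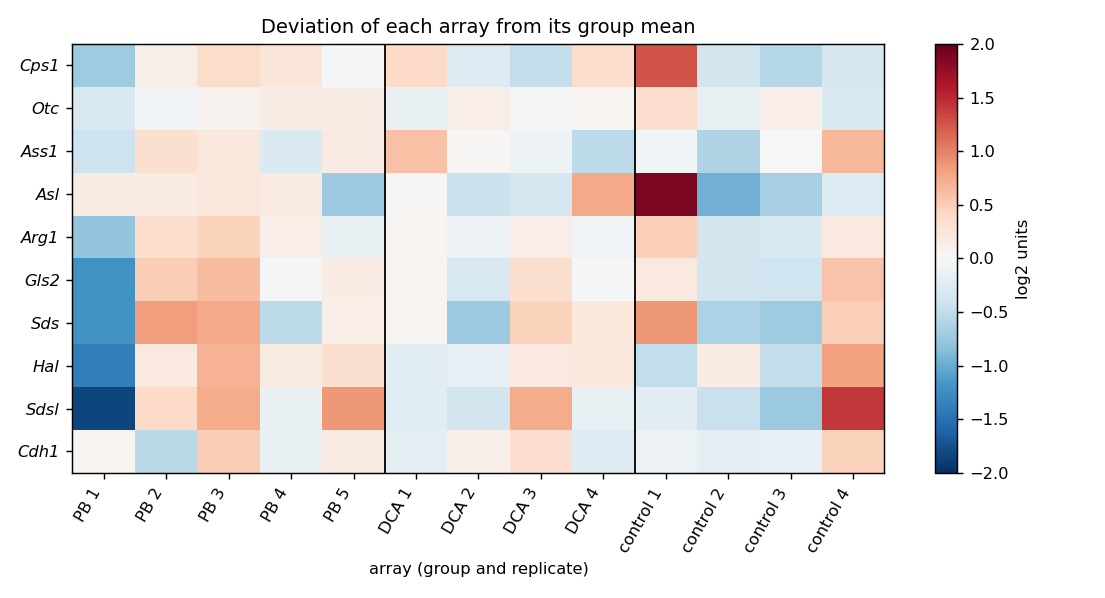
Deviation of each array from its group mean (log2) for the 10 genes, arrays grouped as PB, DCA and control. PB replicate 1 lies below its group mean for most members, with Sdsl and Hal lowest, while Cps1 and Asl lie high on control replicate 1.

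Some members varied together from mouse to mouse once group means were removed. Over 13 arrays and 45 pairs, 38 correlations were positive and 7 negative, with a median r of 0.42, or 0.36 without PB replicate 1. By an exact permutation test of arrays within groups (two-sided, 69120 orderings) with Benjamini-Hochberg adjustment over the 45 pairs, 5 pairs passed by Pearson's r and 4 of them by Spearman's rho. They joined Gls2 with Sds, Sdsl and Arg1, Sds with Arg1, and Hal with Sdsl. Pairs of other genes were not examined, so these counts do not show that the members differ from other genes in this. The arrays share a normalization, and leaving out 1 array changed how many pairs passed to between 0 and 8, with 0 passing without PB replicate 1 and 0 without DCA replicate 2.

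Gls2 and Sds had an r of 0.90 and a rho of 0.88 (adjusted p of the exact permutation test 0.0202 and 0.0245), and an r of 0.89 without the 2 arrays farthest from the median. Gls2 and Sdsl had an r of 0.92, or 0.83 without the 2 farthest arrays. Arg1 and Gls2 had an r of 0.91, or 0.87 without the 2 farthest. The size of r thus stayed high for these pairs where the count of passing pairs did not. Arg1 and Sds had an r of 0.88, or 0.75 without the 2 farthest. Hal and Sdsl had an r of 0.90, with a rho of 0.87 that missed the threshold (adjusted p 0.0671 by the exact permutation test). Over leaving out each array and the authors' own normalized values, the lowest r of these 5 pairs was 0.784.

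Other pairs were weaker. Sds and Sdsl, the related and neighbouring genes, had an r of 0.75 (adjusted p 0.0760 by the exact permutation test). Cps1 and Asl, both highest on control replicate 1, had an r of 0.80 (adjusted p 0.121 by the exact permutation test). That r was 0.40 without control replicate 1 and 0.92 without PB replicate 1, so it too depended on single arrays. Cps1 and Arg1 had an r of 0.70, which was 0.17 without the 2 farthest arrays, so that relation rested on those arrays.

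**Figure D4:**
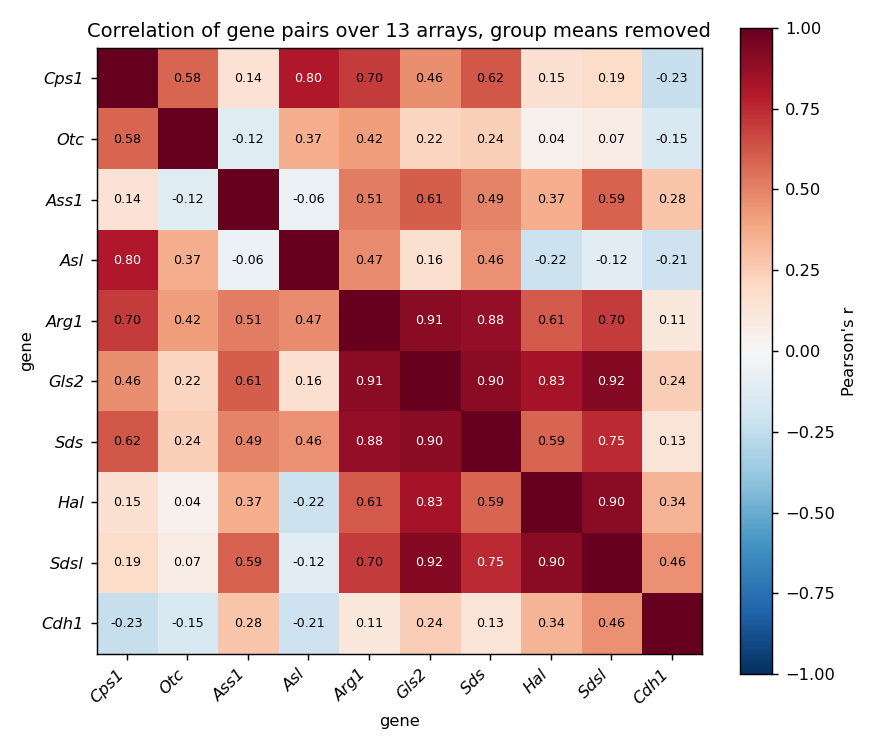
Pearson's r between the 10 genes over 13 arrays after group means were removed, each cell a pair. Gls2, Sds, Sdsl, Arg1 and Hal form the pairs of highest r, up to 0.92, and the highest r of Otc is 0.58 and of Cdh1 0.46.

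Genes of the other side of the lobule differed on PB replicate 1 in the opposite direction. Of 16 tested pericentral genes, 12 were highest on this array, whose mean over the list was 9.89, against 7.62 to 8.58 on the other 12. Glul, glutamine synthetase, was 8.62 there and at most 6.68 elsewhere. Axin2 was 8.67 there and at most 6.90 elsewhere, and Lgr5 was 6.52 there and at most 5.50 elsewhere, both being responsive to Wnt signalling. Rhbg, an ammonium transporter, was 10.85 there and at most 7.82 elsewhere, and the Wnt target Sp5 was 9.04 there and at most 6.85 elsewhere. Cyp1a2, also pericentral, went the other way, at 11.09 there, and only control replicate 4 was lower, at 10.21. Axin2, Lgr5, Rhbg, Sp5 and Cyp1a2 were chosen for naming after their values were seen. A control array departed as well, in the other direction. Control replicate 4 was the lowest of all arrays for 11 of the 16 pericentral genes. Its mean of 7.62 lay below the next lowest, 8.25 on DCA replicate 3. It is 1 of the 4 control arrays in every comparison with control.

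Of 13 further periportal genes tested, 7 were lowest on PB replicate 1, whose mean of 9.30 was below the 9.53 to 10.16 of the other arrays. Cyp2f2, a periportal cytochrome, was 9.42 there and at least 11.04 elsewhere, and Ctsc, cathepsin C, was 6.01 there and at least 7.61 elsewhere. Apoa4, an apolipoprotein, went the other way, at 13.46 there and at most 11.84 elsewhere. G6pc (11.17), Fbp1 (11.57) and Gm2a (10.04) were also high there, at rank 12 of 13 arrays counted from the lowest. The list thus split in both directions on this array. Apart from Apoa4, the genes named here were chosen after their values were seen. The mean of the 7 hepatocyte markers tested was not low on that array, at 12.20. Array means were 12.17 to 12.28 in PB, 12.14 to 12.22 in DCA and 12.08 to 12.22 in control mice. Single markers were split on that array. Apoc3 (13.43, at least 13.94 elsewhere) and Serpina1a (12.05, at least 12.14 elsewhere) were lowest there, while Apoa1 and Ahsg were highest.

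PB replicate 1 also had the lowest array mean for tested markers of Kupffer cells, stellate cells, sinusoidal endothelium, bile duct cells and erythroid cells, and the highest for 2 markers of proliferating cells. For 4 bile duct markers the array means were 5.25 to 5.85 in PB, 5.45 to 5.86 in DCA and 5.37 to 5.86 in control mice. For the 6 erythroid markers that array was at 6.87, close to PB replicate 5 at 6.98, and 1 of the 6 was lowest on it. For the 2 markers of proliferating cells it was at 5.89, and 1 of them was highest on it. By contrast, 7 of 10 Kupffer cell, 6 of 8 stellate cell and 6 of 8 endothelial markers were lowest on it. For 8 endothelial markers the array means were 6.15 to 7.28 in PB, 6.89 to 7.27 in DCA and 6.70 to 7.11 in control mice. For 10 Kupffer cell markers they were 6.08 to 7.23 in PB, 6.86 to 7.22 in DCA and 6.65 to 8.17 in control mice. For 8 stellate cell markers they were 5.35 to 7.10 in PB, 6.54 to 7.15 in DCA and 5.94 to 6.86 in control mice. Whether the mix of cells had a part in the low members of that array was not tested.

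**Figure D5:**
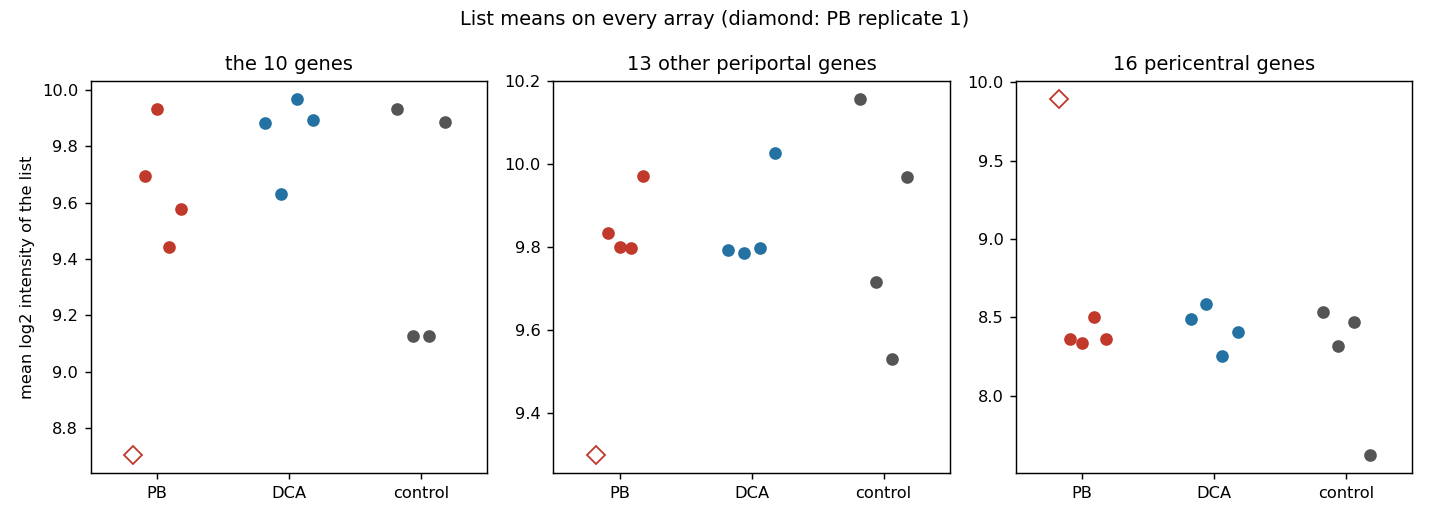
Mean log2 intensity of the 10 members, of 13 other periportal genes and of 16 pericentral genes on each array, by group. PB replicate 1 is lowest for the members (8.70) and for the other periportal genes (9.30) and highest for the pericentral genes (9.89). Control replicate 4 is lowest for the pericentral genes (7.62).

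As a list, pericentral genes had 15 of 16 means higher in PB than in control mice, with a median of 0.33 and 0 calls, and 9 of 16 without PB replicate 1 or 11 of 16 without control replicate 4. Tbx3, a Wnt-regulated transcription factor, differed by 0.88 ± 0.24 (adjusted p 0.265 in limma) and Notum, a Wnt inhibitor, by 0.83 ± 0.31, against 0.71 and 0.56 without PB replicate 1. DCA was higher than control for 11 of 16, or 5 of 16 without control replicate 4, the array with the lowest pericentral mean, 7.62. Other periportal genes were higher in PB than in control mice for 4 of 13 (median -0.21) and higher in DCA than in control mice for 8 of 13 (median 0.08). Leaving out 1 array gave 4 to 6 in PB and 6 to 10 in DCA. None of these genes passed in any comparison.

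Genes that feed the urea cycle also gave 0 calls. Of 7 transport and supply genes tested, 3 were higher in PB and 4 in DCA than in control mice (1 in PB without control replicate 2). Slc25a15, the mitochondrial ornithine carrier, differed by -0.67 ± 0.28 in PB against control (adjusted p 0.451 in limma) and by 0.62 ± 0.28 in DCA against PB. Of 10 glutamine and ammonia genes, 5 were higher in PB and 7 in DCA than in control mice (8 in PB without control replicate 1). Glul differed by 0.96 ± 0.42 in PB against control (adjusted p 0.467 in limma), and by 0.52 ± 0.25 without PB replicate 1, which held its highest value.

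Of 12 serine, glycine and threonine genes, 5 were higher in PB and 5 in DCA than in control mice, none past the threshold (8 in DCA without control replicate 1). Agxt2, an aminotransferase of the mitochondrion, differed by 0.57 ± 0.23 and Agxt, the alanine-glyoxylate enzyme, by -0.49 ± 0.22 in PB against control. Of 3 histidine breakdown genes that follow or accompany Hal, 1 was higher in PB and 0 in DCA than in control mice, and Uroc1, the enzyme after Hal, differed by 0.21 ± 0.39 in PB (0.45 without PB replicate 1) and -0.31 ± 0.41 in DCA. Leaving out 1 array moved these counts to between 1 and 3 in PB, the highest without PB replicate 1 or PB replicate 4, and to at most 2 in DCA, without DCA replicate 1.

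The 22 genes of other amino acid breakdown had 10 higher in PB and 13 in DCA than in control mice, with medians of -0.03 and 0.02. Leaving out 1 array moved these counts to between 8 and 15 in PB and between 11 and 15 in DCA. Ddo, D-aspartate oxidase, differed by 0.50 ± 0.15 in PB against control. For 11 fasting and glucagon responsive genes, which include regulators of amino acid breakdown, 7 were higher in PB and 4 in DCA than in control mice. These counts were 5 to 8 in PB and 3 to 6 in DCA when 1 array was left out. Fgf21, a hormone of fasting, differed by 1.42 ± 0.72 in PB against control (adjusted p 0.534 in limma), and by 0.58 ± 0.27 without PB replicate 1.

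Transcription factors of the liver gave 4 of 10 higher in PB and 4 of 10 in DCA than in control mice, with 0 calls. These counts were 3 to 5 in PB and 3 to 6 in DCA when 1 array was left out. Cebpa and Cebpb, the factors that bind the C/EBP type motif, differed in DCA against PB by 0.94 ± 0.36 and 0.78 ± 0.25 (adjusted p 0.270 and 0.213 in limma). Against control, Cebpa differed by -0.39 ± 0.36 in PB and Cebpb by 0.52 ± 0.26 in DCA. A link of these factors with the members was not tested. The 10 adhesion partners of Cdh1 had 6 higher in PB and 6 in DCA than in control mice (3 in DCA without control replicate 4). Pvrl2, a nectin, differed by -0.59 ± 0.17 in PB against control (adjusted p 0.268 in limma), and Ctnna1, alpha-catenin, by 0.29 ± 0.11.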

How the data were processed

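Liver RNA of 13 mice (5 PB, 4 DCA, 4 control) was measured on Illumina bead arrays, 1 per mouse, with groups taken from the labels. The members and lists were chosen with earlier results of these data known. The authors deposited linear intensity values and a detection p-value per array in 18138 rows of 1 gene. The submitters' processing notes name GenomeStudio without a version. A second deposited table of 18110 rows holds intensity values that the authors normalized by steps not given in the sources used here, and it served as an alternative. Array number and signal over background limit the precision.

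For background correction, the normexp model of limma (offset 16) took its noise from the detection p-values, fitted on 13609 single-probe rows because 4529 rows hold combined p-values. The fitted background SD was 4.22 to 6.96 units, against 57.3 to 150 when all rows were used. Quantile normalization and log2 followed. The design had assumed 1 row per probe, and its rule for choosing a probe had no use. The 8431 genes (46.5%) that had a detection p under 0.05 on 4 or more arrays were tested. limma 3.58.1 in R 4.3.3 fitted group means to all 13 arrays, with two-sided tests, Benjamini-Hochberg adjustment over all genes tested and a threshold of 0.05. Where nothing says otherwise, group values are means ± SD. All members are named. For further lists the rule takes the 2 genes of smallest unadjusted p, of which some are not reported here, and exceptions are stated. Alternatives covered background, normalization, filter, array weights, arrays fitted and leaving out each array. Gene names were current symbols for 10 of 10 members. The identity of member proteins was not analysed here.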

Additional observations from a re-analysis of the deposited data

Results flagged for a closer look

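Within each group, the array farthest from the rest was compared with the group's whole range for each member. Of 30 such groups, 4 had an array that stood off by Dixon's criterion, which chance meets in about 1 group in 20. Hal was 8.92 on PB replicate 1, against 10.49 on the nearest PB array. Asl was 5.83 on PB replicate 5, against 6.72 on the nearest. Cps1 was 11.81 on control replicate 1, against 10.22 on the nearest control array. Cdh1 was 6.27 on control replicate 4, against 5.68 on the nearest. The arrays concerned were 4 different mice, and the labels record nothing that sets them apart from their groups.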

How the results depend on the processing

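No member passed the threshold under any alternative run, the lowest adjusted p in limma being 0.171. Of 627 alternative values of the 30 member differences, 597 kept their sign and 30 changed it, in 14 differences. For PB against control, array weights turned Cps1 (0.21), Ass1 (0.11), Arg1 (0.025), Gls2 (0.23), Sds (0.17) and Sdsl (0.33), median scaling turned Otc (-0.029), and normexp fitted on all rows turned Asl (-0.10). For DCA against control, median scaling turned Hal (0.00439). For DCA against PB, median scaling turned Otc (0.21) and Cdh1 (0.078), and array weights turned Sdsl (-0.022). Median scaling moved the median of all genes by -0.22 in PB against control, 0.08 in DCA against control and 0.32 in DCA against PB, and there 2, 10 and 10 members were higher, with medians of -0.54, 0.41 and 0.96. Leaving out 1 array gave, for PB against control, Cps1 -0.25 to 0.36, Ass1 -0.23 to 0.19, Asl -0.021 to 0.93, Arg1 -0.31 to 0.010, Gls2 -0.25 to 0.21, Sds -0.50 to 0.046 and Sdsl -0.49 to 0.23. It gave Hal -0.27 to 0.16, Sdsl -0.039 to 0.68 and Cdh1 -0.00568 to 0.26 for DCA against control, and Sdsl -0.013 to 0.66 for DCA against PB.

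Genes called in PB against control numbered 6, and 2 with normexp on all rows, 0 with median scaling, 12 among genes detected on all 13 arrays, 2 with the compared groups alone and 1 to 13 without 1 array. In DCA against PB there were 11, and 1 with normexp on all rows, 2 without background correction, 0 with median scaling, 2 with the authors' values, 0 with no filter, 293 with array weights, 18 with the compared groups alone and 0 to 14 without 1 array. The F test called 9, and 1 with normexp on all rows, 1 without background correction, 0 with median scaling, 1 with the authors' values, 0 with no filter, 51 with array weights and 1 to 11 without 1 array. Correlated pairs numbered 5, and 0 to 8 without 1 array, an alternative chosen after seeing the data. The cause of these changes was not tested. No paired analysis was possible because replicate numbers follow accession order and pair nothing. Depth does not apply to arrays, and signal over background limits Otc most, and also Cdh1 and Asl.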

Other observations

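Erythroid markers, the genes of red blood cell precursors, were among the lists examined beside the members. Of 6 tested genes, 0 were higher in PB and 2 in DCA than in control mice, with medians of -0.85 and -0.94 and 0 calls by limma. Array means over these genes were 6.87 to 7.69 in PB, 7.04 to 7.72 in DCA and 7.72 to 8.32 in control mice. Of 10 tested Kupffer cell markers, 0 were higher in PB than in control mice (median -0.17), but 8 were without control replicate 2 and 5 without PB replicate 1.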
